A study of Mus musculus with 18 samples.

Results

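The genes described here are 8 transcripts read as marks of recent antigen receptor signaling in T cells, namely *Nr4a1*, *Nr4a2*, *Nr4a3*, *Egr1*, *Egr2*, *Egr3*, *Nab2* and *Cd5*. They were chosen by symbol, and all 8 were found among the 50600 genes of the count table. RNA-seq counts came from FACS-purified regulatory T cells (Tregs) of 18 individual C57BL/6 mice. Thymic Tregs came from 5 WT mice with a Foxp3/RFP reporter and from 5 CD25cKO mice, all aged 3–4 weeks. CD25cKO mice carry 2 floxed alleles of *Il2ra*, the gene of the IL-2 receptor chain CD25, and a YFP/Cre allele of *Foxp3*, the Treg lineage factor, so that Cre excises part of *Il2ra* only in cells that have turned *Foxp3* on. These CD25cKO mice were “cured”, which means that they had been given WT spleen cells soon after birth to prevent autoimmunity. The donors were congenic WT mice with no YFP described, and the sort for YFP+ cells was meant to leave donor cells out. Whether any donor cells remained in these libraries was not measured. Splenic Tregs came from 4 CD25flox/Foxp3eGFP-Cre-ERT2/R26Y mice and 4 WT reporter controls, all given tamoxifen at 7–10 weeks of age and killed 10–14 days later. Tamoxifen activates the Cre and switches on YFP, and YFP+ cells were sorted. CD25-deficient cells are called CD25 KO.

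NR4A proteins are orphan nuclear receptors and EGR proteins are zinc finger transcription factors. Both families are immediate early genes, whose transcripts appear within minutes to hours of T cell receptor (TCR) signaling, through calcium and the ERK pathway. Nab2 is a corepressor that binds EGR proteins and is itself induced by them, and Cd5 is a surface inhibitor of TCR signaling whose level is set in the thymus by the strength of that signal. In Tregs, NR4A receptors are known to help keep *Foxp3* on, and Nr4a1 reporters are used to read how strongly a Treg sees self antigen. The comparisons below address whether loss of CD25 changed these transcripts in developing and in mature Tregs, and how the genes differed between thymus and spleen.

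The promoters of the 3 NR4A genes and of *Egr2* are shown because *Nr4a1* and *Nr4a3* shared 1 pattern between tissues while *Nr4a2* and *Egr2* were both higher in CD25 KO than in WT mice of the spleen. Each is a RefSeq window of 300 bases, from 250 before to 50 after the start site, on the strand of the gene in build GRCm38.p6; such windows were found for 6 of the 8 genes, not for *Egr1* or *Egr3*. The windows are chr15:101266596-101266895 on the + strand for *Nr4a1*, chr2:57123954-57124253 on the - strand for *Nr4a2*, chr4:48045055-48045354 on the + strand for *Nr4a3* and chr10:67537619-67537918 on the + strand for *Egr2*. Of the 5 windows of *Egr2*, the one whose start is that of the principal transcript was taken. Capitals mark TGACG, the core of the cAMP response element, on either strand, and in *Egr2* also a CArG box, the binding motif of serum response factor.
Nr4a1: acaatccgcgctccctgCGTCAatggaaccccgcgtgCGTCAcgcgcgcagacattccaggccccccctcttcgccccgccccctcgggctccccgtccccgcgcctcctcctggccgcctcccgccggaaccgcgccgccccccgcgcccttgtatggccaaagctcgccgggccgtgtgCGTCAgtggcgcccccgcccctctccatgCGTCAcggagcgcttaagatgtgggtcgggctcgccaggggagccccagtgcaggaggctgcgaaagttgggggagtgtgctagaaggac
Nr4a2: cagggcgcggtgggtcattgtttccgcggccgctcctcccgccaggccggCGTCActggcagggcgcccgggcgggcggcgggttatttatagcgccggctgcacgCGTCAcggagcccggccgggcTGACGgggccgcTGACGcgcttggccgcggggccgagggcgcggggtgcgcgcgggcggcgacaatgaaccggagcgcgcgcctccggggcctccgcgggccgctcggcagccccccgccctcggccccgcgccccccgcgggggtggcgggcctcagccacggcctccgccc
Nr4a3: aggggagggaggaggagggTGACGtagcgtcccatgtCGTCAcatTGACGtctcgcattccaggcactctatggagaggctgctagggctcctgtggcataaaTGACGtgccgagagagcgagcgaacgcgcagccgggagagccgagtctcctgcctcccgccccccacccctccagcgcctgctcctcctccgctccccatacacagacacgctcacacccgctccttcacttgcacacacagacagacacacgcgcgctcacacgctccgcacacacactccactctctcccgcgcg
Egr2: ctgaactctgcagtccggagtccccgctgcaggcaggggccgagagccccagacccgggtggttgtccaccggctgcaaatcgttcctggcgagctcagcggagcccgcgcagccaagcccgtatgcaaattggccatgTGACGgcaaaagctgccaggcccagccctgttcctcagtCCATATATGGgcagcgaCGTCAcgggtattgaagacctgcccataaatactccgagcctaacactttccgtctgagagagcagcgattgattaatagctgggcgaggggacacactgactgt
TGACG was found 4 times in each of the 3 NR4A windows and 2 times in that of *Egr2*, and not in those of *Nab2* and *Cd5*. Of all 32851 windows of the table, 20.8% held at least 1 match, 5.01% at least 2 and 0.231% at least 4. In *Nr4a1* the 4 matches began 233, 213, 69 and 40 bases before the start site, and in *Nr4a2* 200, 144, 123 and 111 bases before it. In *Nr4a3* they began 231, 213, 205 and 147 bases before the start of the window's transcript, which lies 152 bases from that of the principal transcript in GENCODE. The CArG box of *Egr2* began 72 bases before the start and lay between its 2 matches to TGACG, at 111 and 55 bases; 1.63% of all windows held a CArG box. None of the 6 windows held the full palindrome TGACGTCA (1.79% of all windows), the EGR site GCGTGGGCG (0.612%) or the NR4A site AAAGGTCA (1.51%). A match describes these letters only, and binding was not measured.

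In genome build GRCm38, *Nr4a1* (ENSMUSG00000023034) lies on chr15:101254269-101274795, *Nr4a2* (ENSMUSG00000026826) on chr2:57106830-57124003 and *Nr4a3* (ENSMUSG00000028341) on chr4:48045153-48086447. *Egr1* (ENSMUSG00000038418) lies on chr18:34859823-34864984, *Egr2* (ENSMUSG00000037868) on chr10:67535475-67542188 and *Egr3* (ENSMUSG00000033730) on chr14:70077203-70082614. *Nab2* (ENSMUSG00000025402) lies on chr10:127660918-127668568 and *Cd5* (ENSMUSG00000024669) on chr19:10717116-10739002. All 8 are protein coding. *Nab2* alone overlaps other genes on the opposite strand, sharing 40 exonic bases with *Stat6*, 151 with *Nemp1* and 1050 with the antisense gene *Gm16229*. The strand setting of the counting was not given in the sources used here, so reads of *Nab2* and of these partners may be mixed.

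Thymic libraries held 17239774 to 23993674 counts and splenic libraries 25258341 to 32639570. *Il2ra* was lower in every CD25 KO mouse than in any WT mouse of its tissue, at 95.9 to 279.9 CPM (read counts relative to library size, with TMM scaling over all 18 libraries) against 524 to 682 in the thymus and at 168 to 208 against 488 to 539 in the spleen. Per the study, Cre removes exon 4 of *Il2ra*, and transcripts of the gene were lowered in CD25 KO Tregs but still present. These counts cover the whole gene and so do not measure the excision. Thymic CD25 KO mice 2 and 4, at 279.9 and 234 CPM, stood above the other 3, at 95.9 to 105 CPM. The reason for their higher level was not tested. Thymic WT libraries were split by *Fos* and *Jun*: mice 1, 2 and 3 had 117, 124 and 142 CPM of *Fos* whereas mice 4 and 5 had 10.8 and 30.1 CPM. All 9 Treg markers were detected in every mouse. Of other cell types, the B cell list had a summed level of 109 to 138 CPM in WT and 59.7 to 77.3 in CD25 KO mice of the thymus, and 452 to 566 and 617 to 747 CPM in those of the spleen, most of it *Ighm*, while the B cell marker *Ms4a1* stayed at or under 0.473 CPM in all 18 mice. The tissues also differed in sequencing run, age and mouse model, which cannot be told apart from tissue. Thymic mice of the 2 genotypes had unlike *Foxp3* reporters, and only the CD25 KO mice were described as given WT spleen cells. Neither can be told apart from genotype in the thymus.

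**Figure D1:**
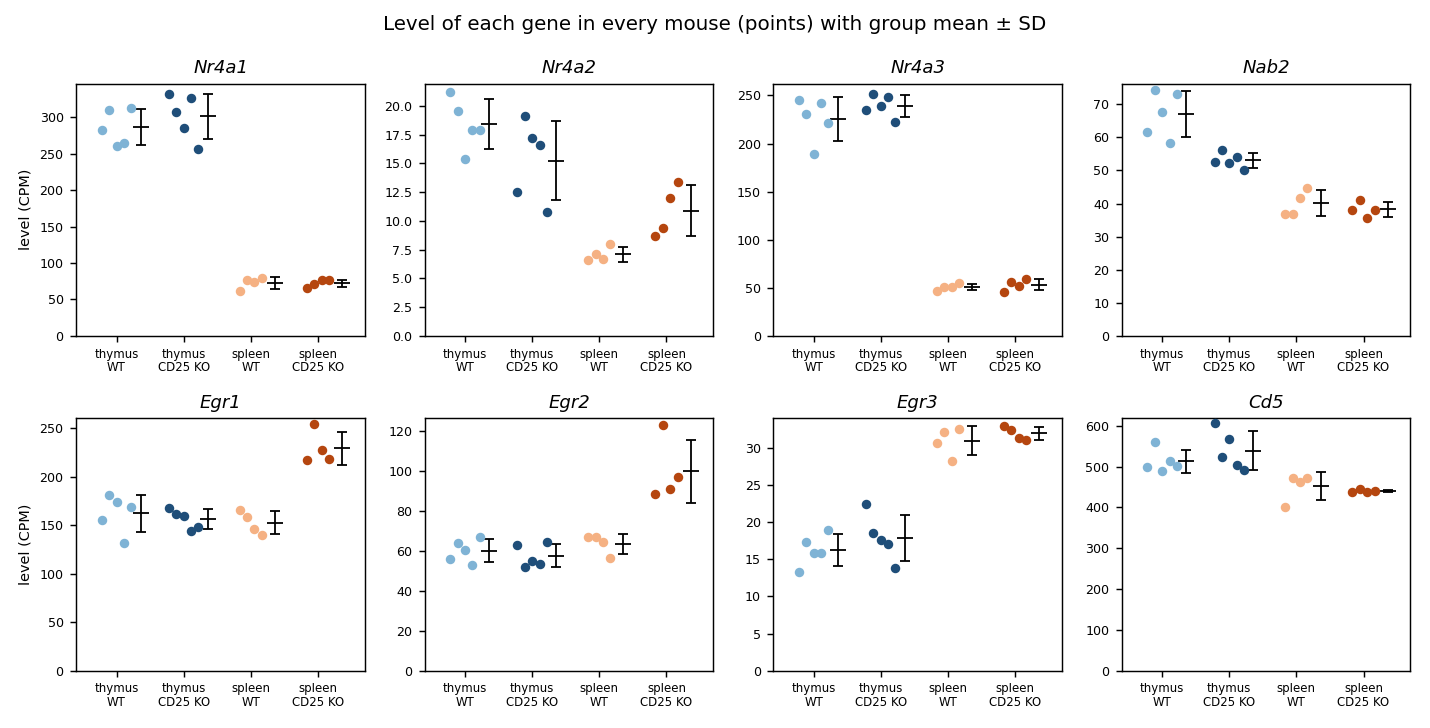
Level in CPM (vertical axes, from 0) of the 8 genes in every mouse of the 4 groups; each point is 1 mouse and the bars are mean ± SD. *Egr1*, *Egr2* and *Nr4a2* of the 4 splenic CD25 KO mice lie above all splenic WT mice, *Nab2* of the 5 thymic CD25 KO mice lies below all thymic WT mice, and *Nr4a1* and *Nr4a3* separate thymus from spleen.

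In splenic Tregs, *Egr1*, *Egr2* and *Nr4a2* were higher in CD25 KO than in WT mice, each by about 1.5-fold, whereas *Nr4a1*, *Nr4a3*, *Egr3*, *Nab2* and *Cd5* did not pass the test. Thus 3 of the 8 genes were differentially expressed (DE; adjusted p under 0.01 in edgeR's quasi-likelihood test), all of them upward, where 9.45% of the 17463 genes tested were DE, 5.90% higher and 3.55% lower. The median log2 fold change was 0.06 over the 8 genes and −0.0065 over all genes tested.

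*Egr1*, the EGR member with the highest level, had 166, 158, 146 and 140.3 CPM in the 4 splenic WT mice and 217, 254, 228 and 218 CPM in the 4 CD25 KO mice. All 4 CD25 KO mice were above all 4 WT mice. The log2 fold change was 0.59 (SE 0.06, 95% interval 0.45 to 0.73, adjusted p = 1.52e-05), or 1.50-fold. *Egr2*, which in T cells restrains activation and is linked to anergy, had 67.0, 66.9, 64.4 and 56.5 CPM in WT and 88.6, 123, 91.3 and 97.1 CPM in CD25 KO mice. The groups did not overlap, and CD25 KO mouse 2 was the highest for *Egr2* as it was for *Egr1*. Its log2 fold change was 0.65 (SE 0.09, 95% interval 0.46 to 0.84, adjusted p = 0.000125), or 1.57-fold. *Nr4a2* was the least abundant of the NR4A genes, at 6.59, 7.11, 6.68 and 7.96 CPM in WT and 8.68, 9.42, 12.0 and 13.4 CPM in CD25 KO mice. Here too every CD25 KO mouse was above every WT mouse, although the highest WT and the lowest CD25 KO mouse were 7.96 and 8.68 CPM. The log2 fold change was 0.62 (SE 0.14, 95% interval 0.33 to 0.91, adjusted p = 0.00456), or 1.54-fold.

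Groups that do not overlap were found for these 3 genes and for 20.4% of all genes tested. The call for *Nr4a2* was lost on leaving out splenic WT mouse 1, 2 or 3 or CD25 KO mouse 3 or 4, with adjusted p of 0.0129 to 0.0193, and in a fit of all 18 mice (adjusted p = 0.0207), whereas *Egr1* and *Egr2* kept theirs. None of the 3 was shown to exceed a fold of 1.5 when that was the value tested against.

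The other 5 genes had overlapping levels in the spleen. *Nr4a1* had 61.2, 76.8, 74.5 and 79.5 CPM in WT and 66.2, 71.4, 76.1 and 76.3 CPM in CD25 KO mice, a log2 fold change of −0.0075 with a 95% interval of −0.17 to 0.15 (adjusted p = 0.962). *Nr4a3* had 47.0, 50.9, 51.0 and 55.0 CPM in WT and 46.0, 55.8, 52.3 and 59.3 CPM in CD25 KO mice, with an interval of −0.09 to 0.23. The intervals of *Nr4a1* and *Nr4a3* thus allowed folds of at most 1.11 and 1.17 upward. *Egr3* had 28.3 to 32.6 CPM in WT and 31.1 to 33 CPM in CD25 KO mice, with an interval of −0.09 to 0.18. *Nab2* had 36.8 to 44.8 and 35.7 to 41.2 CPM, with an interval of −0.22 to 0.09. *Cd5* had 401, 473, 463 and 471 CPM in WT and 439, 445, 438 and 441 CPM in CD25 KO mice, with an interval of −0.15 to 0.08. The 4 CD25 KO mice thus differed among themselves by little (SD 2.86 CPM, against 34.1 CPM in WT), and WT mouse 1 stood below the other 3.

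Within the families, the splenic changes were uneven. Per kilobase of exon, *Nr4a2* made up 5.64% ± 0.348 (SD, n = 4) of the summed NR4A level in splenic WT and 8.26% ± 1.07 in CD25 KO mice, with *Nr4a1* at 66.9% ± 1.48 and 64.2% ± 1.56. The summed level of the 3 NR4A genes was 31.0 ± 2.94 CPM per kb in WT and 32.3 ± 2.68 in CD25 KO mice, so that the increase of *Nr4a2* was small beside the family. The summed level of *Egr1*, *Egr2* and *Egr3* was 59.8 ± 3.90 CPM per kb in WT and 88.0 ± 8.36 in CD25 KO mice, and their ranges, 55.3 to 63.8 and 82.1 to 100.3, did not overlap. *Egr1* made up 56.9% ± 0.896 of it in WT and 58.3% ± 1.53 in CD25 KO mice, *Egr2* 31.3% ± 1.18 and 33.4% ± 2.13, and *Egr3* 11.8% ± 1.13 and 8.30% ± 0.736. These shares are given as descriptions, with no test.

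In thymic Tregs, 1 of the 8 genes was DE between CD25 KO and WT mice, the corepressor *Nab2*, which was lower in CD25 KO mice. Over all 16986 genes tested, 6.16% were DE, 3.17% higher and 2.99% lower, so a count of 1 in 8 was not apart from the background. *Nab2* had 61.5, 74.3, 67.8, 58.4 and 73.0 CPM in the 5 WT mice and 52.6, 56.2, 52.3, 54.1 and 50.1 CPM in the 5 CD25 KO mice. The 5 CD25 KO mice all lay under the lowest WT mouse, and a gap of this kind, in either direction, was found for 16.4% of all genes. The log2 fold change was −0.32 (SE 0.07, 95% interval −0.47 to −0.17, adjusted p = 0.00975), or 1.25-fold lower. This call stood at the edge of the threshold: it was lost in 9 of the 10 fits that left out 1 mouse (every one except that without WT mouse 4), with adjusted p up to 0.0338, under RLE and upper-quartile normalization (0.0106 and 0.0118), and after a correction for GC content (log2 fold change −0.18, adjusted p = 0.0634). Of the partners on the other strand, *Stat6* differed by −0.10 (adjusted p = 0.199) and *Nemp1* by −0.30 (adjusted p = 0.0458) on the log2 scale, and *Gm16229* had only 4 to 20 counts in a thymic mouse; whether they add to the *Nab2* value was not tested.

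No NR4A gene passed the test in the thymus. *Nr4a1* had 283, 309.9, 261, 265 and 313 CPM in WT and 332, 307, 285, 326 and 256 CPM in CD25 KO mice, and its log2 fold change of 0.09 had a 95% interval of −0.08 to 0.26 (adjusted p = 0.421). *Nr4a3* had 245, 231, 189, 242 and 221 CPM in WT and 235, 252, 239, 248 and 222 CPM in CD25 KO mice, and the interval ran from −0.06 to 0.26. Both groups overlapped for both genes. *Nr4a2* had 21.2, 19.6, 15.4, 17.9 and 17.9 CPM in WT and 12.5, 19.1, 17.2, 16.6 and 10.8 CPM in CD25 KO mice; 2 of the CD25 KO mice were below all WT mice, and the log2 fold change of −0.25 did not pass the test (interval −0.58 to 0.07, adjusted p = 0.233).

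The EGR genes and *Cd5* likewise did not pass the test in the thymus. *Egr1* had 155, 181, 174, 132 and 169 CPM in WT and 168, 162, 159.9, 144 and 148 CPM in CD25 KO mice, with a log2 fold change of −0.04 (interval −0.20 to 0.13). *Egr2* had 56.2, 64.2, 60.5, 53.2 and 67.0 CPM in WT and 63.0, 52.0, 55.0, 53.6 and 64.6 CPM in CD25 KO mice, with a log2 fold change of −0.05 (interval −0.22 to 0.12). For both genes the CD25 KO mice fell within or near the range of WT mice. *Egr3* ranged from 13.3 to 19 CPM in WT and from 13.8 to 22.4 CPM in CD25 KO mice (interval −0.11 to 0.42). *Cd5* had 499, 559.7, 489, 515 and 502 CPM in WT and 608, 524, 567, 505 and 492 CPM in CD25 KO mice (interval −0.05 to 0.22). The upper bounds of these intervals were folds of 1.10 for *Egr1*, 1.09 for *Egr2*, 1.34 for *Egr3* and 1.17 for *Cd5*. With the correction for GC content the thymic log2 fold changes were 0.22 for *Nr4a1* (adjusted p = 0.0217), 0.22 for *Cd5* (adjusted p = 0.0186) and 0.24 for *Egr3* (adjusted p = 0.164), which did not pass the test but were over 1.5 times those without it.

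**Figure D2:**
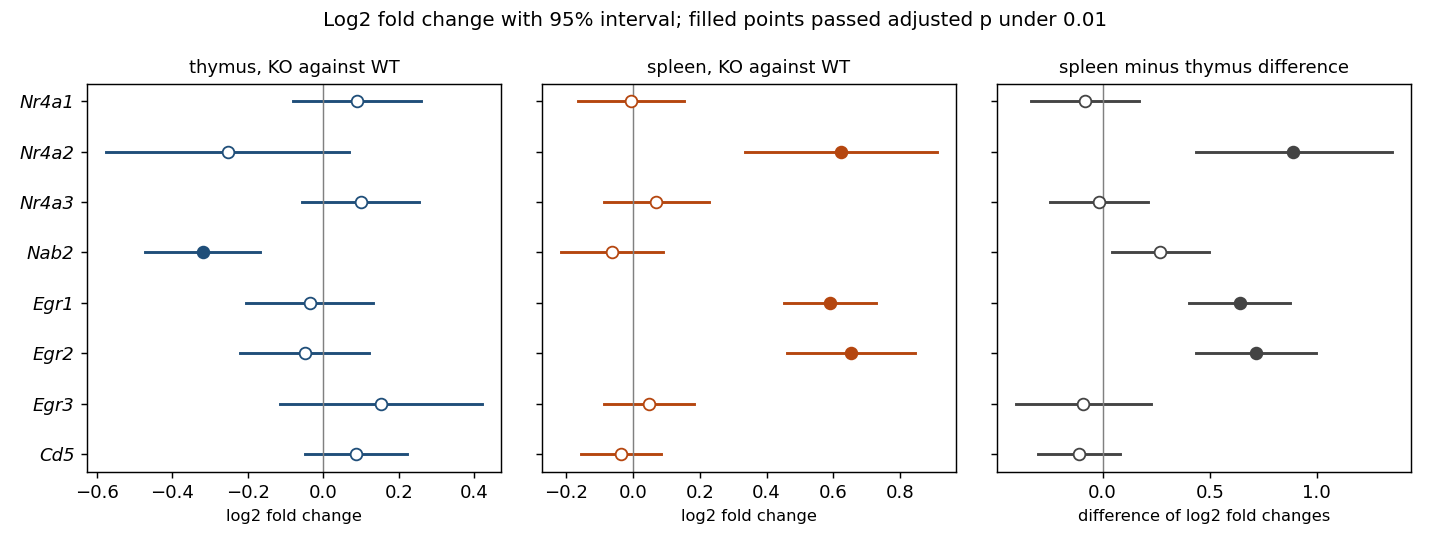
Log2 fold change between CD25 KO and WT (horizontal axes) of the 8 genes in thymus and spleen, and the difference of the 2 fold changes; points are edgeR estimates, lines 95% intervals, and filled points passed an adjusted p of 0.01. The filled points are *Nab2* at −0.32 in the thymus, and *Egr1*, *Egr2* and *Nr4a2* at 0.59 to 0.65 in the spleen and at 0.64 to 0.89 in the difference.

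Whether CD25 deficiency acted unequally in thymus and spleen was tested by an interaction term in a fit of all 18 mice, and 3 of the 8 genes passed, all with the higher value in the spleen. Of the 18686 genes tested 6.98% passed, 4.50% with the higher value in the spleen and 2.49% with the lower. The effect was larger in the spleen for *Egr1*, by 0.64 on the log2 scale (SE 0.11, adjusted p = 0.000776), for *Egr2*, by 0.72 (SE 0.14, adjusted p = 0.00134), and for *Nr4a2*, by 0.89 (SE 0.22, adjusted p = 0.00888). For *Nr4a2* the difference joined a higher level in splenic CD25 KO mice with a lower thymic mean that did not itself pass the test, and its call was lost in 14 of 18 fits that left out 1 mouse (adjusted p up to 0.0275). Without thymic WT mice 4 and 5, which had the low *Fos*, *Egr1* and *Egr2* still passed (adjusted p of 0.000324 and 0.00319) and *Nr4a2* did not (0.0203). Without WT mice 1, 2 and 3 the differences were 0.53, 0.71 and 0.85 for *Egr1*, *Egr2* and *Nr4a2*, with adjusted p of 0.0159, 0.0141 and 0.0528. Without thymic CD25 KO mice 2 and 4, which had more *Il2ra*, all 3 passed. *Nab2* differed by 0.27 (adjusted p = 0.0880), so its lower level in the thymus was not shown to be particular to the thymus.

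Between tissues, the 3 NR4A genes and *Nab2* were lower and *Egr3* was higher in the spleen than in the thymus. In WT mice, 5 of the 8 genes were DE between spleen and thymus, 1 higher and 4 lower in the spleen, where 40.4% of all genes were DE, 21.0% higher and 19.5% lower. In CD25 KO mice all 8 were DE, 3 higher and 5 lower, where 50.2% of all genes were, 25.8% higher and 24.4% lower. The call of *Nr4a2* among these was kept in only 7 of 18 fits that left out 1 mouse (adjusted p up to 0.0303) and was lost with a filter of at least 10 counts (0.0102). Groups did not overlap for 6 of the 8 genes in WT mice and for 7 in CD25 KO mice, against 46.0% and 47.8% of all genes. *Nr4a1* and *Nr4a3* had the largest differences: WT levels were 286 ± 24.4 CPM (SD, n = 5) in the thymus against 73.0 ± 8.11 (n = 4) in the spleen for *Nr4a1* and 226 ± 22.8 against 51.0 ± 3.27 for *Nr4a3*. Splenic levels were thus 3.92-fold and 4.43-fold lower (log2 fold changes −1.97 and −2.15, adjusted p of 3.14e-13 and 3.18e-14), and in CD25 KO mice they were 4.16-fold and 4.48-fold lower. No thymic mouse overlapped with a splenic one for either gene. *Nr4a2* was 2.59-fold lower in splenic than in thymic WT mice (log2 fold change −1.38, adjusted p = 4.32e-07) and 1.40-fold lower in CD25 KO mice (−0.48, adjusted p = 0.00978), where the tissues overlapped. *Nab2* was 1.67-fold lower in splenic WT mice (−0.74, adjusted p = 9.64e-08). Here fewer cells of a kind and less RNA per cell cannot be told apart.

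*Egr3* ran the other way, with a splenic level 1.90-fold above the thymic one in WT mice (log2 fold change 0.93, adjusted p = 3.99e-07) and 1.79-fold above it in CD25 KO mice. *Egr1* and *Egr2* did not pass the test between tissues in WT mice, at log2 fold changes of −0.09 (interval −0.25 to 0.08) and 0.08 (interval −0.12 to 0.28), and in CD25 KO mice the spleen was 1.47-fold and 1.74-fold higher. *Cd5* was 1.13-fold lower in the spleen of WT mice, with no overlap but an adjusted p of 0.0239, and 1.22-fold lower in that of CD25 KO mice (adjusted p = 0.000646). As the tissues differed in run, model and age, these values describe the 4 groups of mice.

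In order of mean level, *Nr4a1* ran from 72.5 CPM (CD25 KO) and 73.0 (WT) among splenic to 286 (WT) and 301 (CD25 KO) among thymic mice, and *Nr4a3* from 51.0 (WT) and 53.3 (CD25 KO) to 226 (WT) and 239 CPM (CD25 KO), the genotypes within a tissue not differing beyond their spread. *Nr4a2* ran from 7.09 CPM in splenic WT through 10.9 in splenic CD25 KO and 15.2 in thymic CD25 KO to 18.4 in thymic WT mice. Thymic CD25 KO mice overlapped both with thymic WT and with splenic CD25 KO mice. *Egr1* stood at 153 to 162 CPM in 3 of the groups and at 229.5 in splenic CD25 KO mice, and *Egr2* at 57.6 to 63.7 in the same 3 groups and at 100.1 CPM in splenic CD25 KO mice. *Egr3* stood at 16.2 and 17.9 CPM in the thymus and at 30.9 and 32.0 in the spleen. For *Nab2* the order was thymic WT (67.0 CPM), thymic CD25 KO (53.1 CPM), splenic WT (40.1 CPM) and splenic CD25 KO mice (38.3 CPM), the last pair overlapping.

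**Figure D3:**
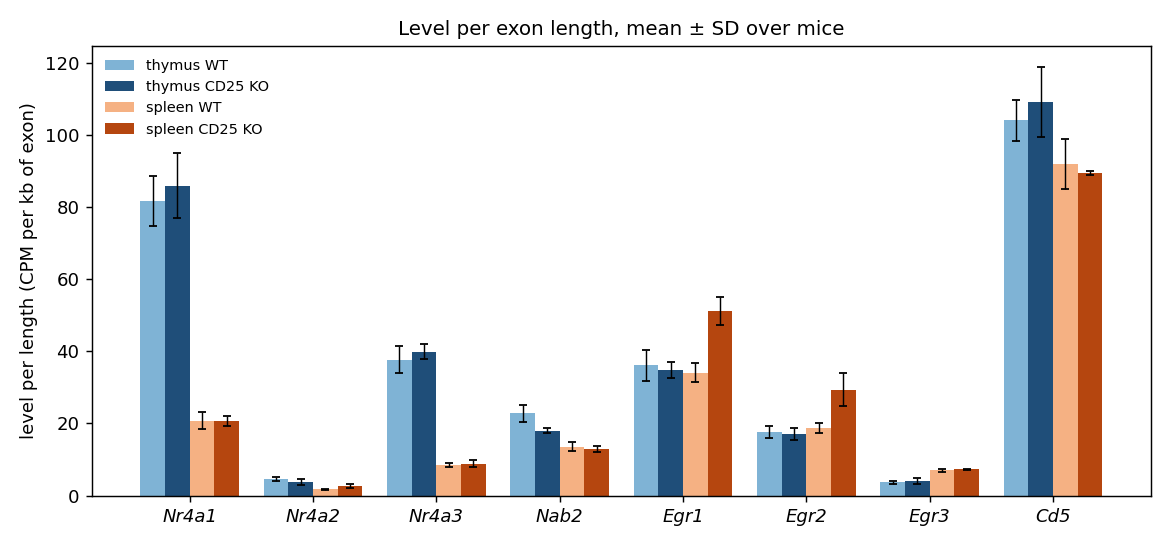
Level per length (vertical axis, CPM per kilobase of merged exons, from 0) of the 8 genes in the 4 groups; bars are means and lines SD over 5 thymic or 4 splenic mice. *Cd5* is highest throughout, *Nr4a1* is the highest transcription factor in the thymus, and *Egr1* is the highest in the spleen.

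Per kilobase of exon, which allows genes to be compared, *Cd5* had the highest level of the 8 in every group, 89.4 to 109 CPM per kb, and lay within the top 2.01% of the 18637 genes ranked. *Nr4a1* came next in the thymus, at 81.6 ± 6.96 CPM per kb in WT, in the top 2.20% of genes, and was in the top 11.4% in splenic WT mice. *Nr4a3* went from the top 5.57% in thymic to the top 30.0% in splenic WT mice. *Egr1* was in the top 5.88% of genes in thymic WT mice and, in the spleen, 6.27% in WT and 3.89% in CD25 KO mice, and *Egr2* went from the top 13.2% in splenic WT to 7.81% in splenic CD25 KO mice. *Nr4a2* and *Egr3* were the low members, at 1.75 to 4.53 and 3.69 to 7.25 CPM per kb. *Nr4a1* made up 64.2 to 66.9% of the summed NR4A level in all 4 groups on average, although that sum was 124 CPM per kb in thymic and 31.0 in splenic WT mice.

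The deviations of each mouse from its group mean describe how the genes varied together among the 18 mice, of which those of a tissue share a sequencing run. *Nr4a2* and *Nr4a3* deviated together (Pearson r = 0.71 over 18 mice, 0.71 in the thymus and 0.73 in the spleen), as did *Egr1* and *Egr2* (r = 0.64, 0.54 and 0.84). For *Nr4a1* and *Cd5* r was 0.62, 0.49 and 0.85. Splenic WT mouse 1 was the lowest of its group for both, at 61.2 CPM of *Nr4a1* and 401 CPM of *Cd5*, while *Cd5* hardly varied among splenic CD25 KO mice. The splenic r of this pair thus leans on 1 mouse, and r without that mouse was not computed. *Nr4a2* and *Egr2*, both higher in splenic CD25 KO mice, had a negative r within groups over 18 mice (−0.51) and in the thymus (−0.68). In the spleen r was −0.32 over 8 mice, and no direction is read from so small a value. No p is attached to these values.

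Among 12935 genes, those most like *Nr4a1* in level over the 18 mice were *Sox4* (r = 1.00), *Nr4a3* (0.99) and *Pitpnm1* (0.99), and those most like *Nr4a3* were *Pitpnm1*, *Map4k2* and *Hnrnpu* (each 0.99), so these rankings follow the split between tissues. *Egr1* was most like *Egr2* (0.91), then *Plekho1* (0.90) and *Dhrs1* (0.89), and *Egr2* was most like *Cd3g* (0.94), a chain of the TCR complex, *Gna13* (0.93) and *Bcl2a1d* (0.92). *Egr3* was most like *Plekho2* (0.98), *Otub2* (0.97) and *Atxn1l* (0.97), and *Nab2* most like *Erf*, *Rcc2* and *Traf4* (each 0.97). *Nr4a2* was most like *Hist1h2ah*, *Hc* and a gene with no symbol, ENSMUSG00000064168 (each 0.92), and *Cd5* most like *Hsdl1* (0.93), *Zfp318* (0.92) and *Gse1* (0.92). By deviations from group means, *Cd5* was most like *Cd6* (0.91), its paralog and neighbor in the genome, *Sorl1* (0.91) and *Mllt6* (0.88). *Nr4a1* was then most like *Sbk1* (0.88), *Ube2o* (0.87) and *Yipf3* (0.83). *Nr4a2* and *Nr4a3* shared *Pmaip1* (0.86 and 0.82), a proapoptotic BCL-2 family gene, beside *Rhoq* (0.86) and *Xcl1* (0.85) for the first and *Ak3* (0.81) and *Swap70* (0.80) for the second. *Egr2* was most like *Trav13-1* (0.89), a TCR alpha chain segment, *Ddx20* (0.86) and *Trbc1* (0.85), a constant region of the TCR beta chain. *Egr1* was most like *Nckap1l* (0.83), *Setd3* (0.81) and *Gorasp2* (0.81), *Egr3* like *Samd14*, *Plekho2* and *Wsb2* (each 0.87), and *Nab2* like the ribosomal protein genes *Rplp0* and *Rpl29* (each 0.91) and *Ppp1r18* (0.87).

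Partners of the 8 genes were led by *Nab1*, the paralog of *Nab2* and the other corepressor of EGR proteins. It had 80.9, 78.3, 85.1 and 81.9 CPM in splenic WT and 104 to 129 CPM in the 4 splenic CD25 KO mice, with every CD25 KO mouse above every WT mouse. The log2 fold change was 0.55 (SE 0.07, adjusted p = 3.12e-05). In the thymus it ranged from 78.9 to 90.7 CPM in WT and from 76.8 to 88.7 CPM in CD25 KO mice, and the effect differed between tissues by 0.59 on the log2 scale (adjusted p = 0.000225). Per kilobase, *Nab1* made up 59.4% ± 1.88 of the summed NAB level of WT and 68.9% ± 2.11 of CD25 KO mice in the spleen, and 47.7% ± 3.25 and 52.7% ± 1.75 in the thymus, so *Nab2* held the larger share in thymic WT mice alone of the 4 group means. *Egr4*, the last EGR gene, was near the limit of detection, with 5, 16, 12 and 15 counts in the spleen of WT and 18, 24, 19 and 25 counts in that of CD25 KO mice, higher in each of the latter (log2 fold change 0.70, adjusted p = 0.151), and with 1 to 7 counts in the thymus, where it was not tested.

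*Nab1* was the only DE gene of 7 partners tested in the spleen, and none of 6 was DE in the thymus (0 by edgeR, with 2 at an unadjusted p under 0.05, *Rxra* and *Chd4*). Over all genes tested, 9.45% were DE in the spleen and 6.16% in the thymus, so these counts were not apart from the background. *Cd6*, like Cd5 a scavenger receptor family inhibitor of TCR signaling, had log2 fold changes of 0.08 (thymus) and −0.02 (spleen). The NR4A partner *Rxra* differed by −0.46 in the thymus (adjusted p = 0.0286) and 0.0043 in the spleen, and *Rxrb* by −0.03 and −0.14. *Ddx20*, which binds EGR proteins, differed by −0.13 and 0.14, and *Chd4*, the remodeler recruited by NAB proteins, by −0.21 and −0.03. *Wt1* was absent or at 1 count in every mouse.

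**Figure D4:**
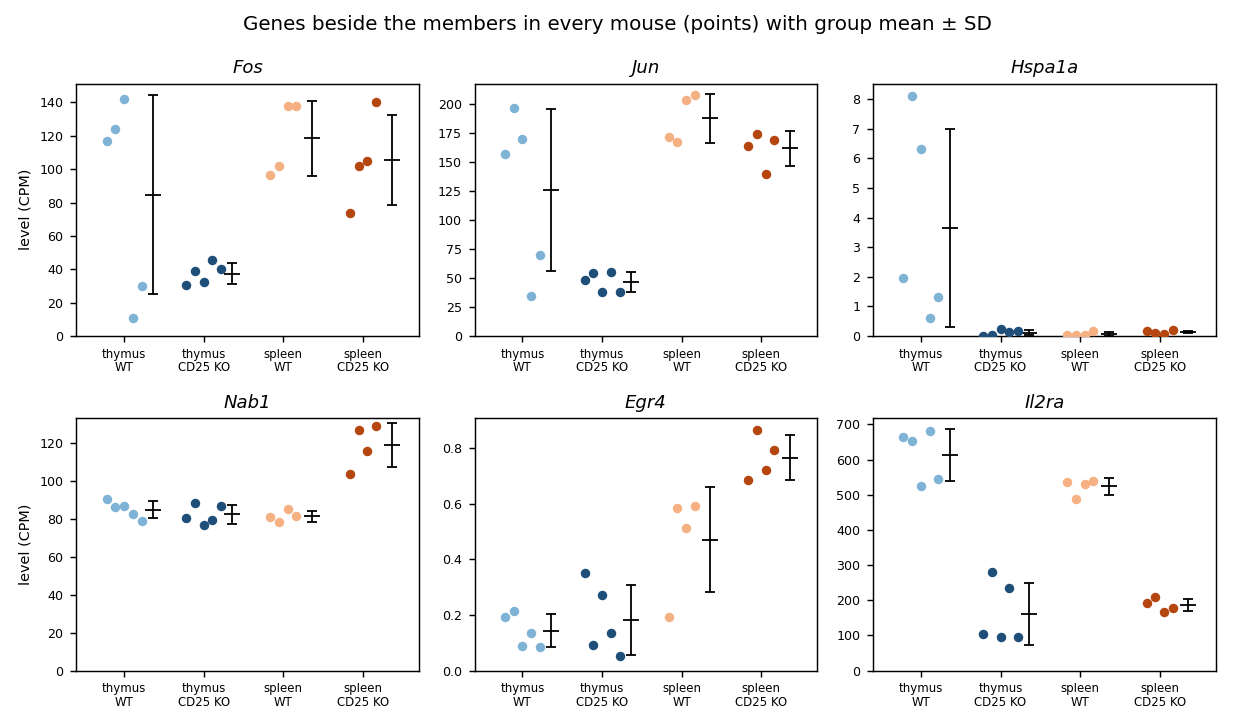
Level in CPM (vertical axes, from 0) of *Fos*, *Jun*, *Hspa1a*, *Nab1*, *Egr4* and *Il2ra* in every mouse of the 4 groups; points are mice and bars mean ± SD. *Fos* and *Jun* split the thymic WT mice, *Hspa1a* is above 0.5 CPM only in thymic WT mice, and *Nab1* is highest in the 4 splenic CD25 KO mice.

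Other immediate early genes gave the 8 genes a wider frame. The lists used here were chosen with results of these data known. They also share genes, so their counts are not independent. For example, *Tigit* and *Batf* stand among both the effector Treg genes and the genes linked to NR4A and EGR proteins. *Icos* stands among both the effector Treg genes and the surface genes tied to TCR signal strength. Thymic counts of DE genes moved with the mice in the fit: of all genes tested, 1047 were DE in the thymus, 371 to 1087 with 1 mouse left out, 164 without WT mice 4 and 5 and 29 without WT mice 1, 2 and 3; the part of the *Fos* split and that of fewer mice were not told apart. Of 31 such genes tested in the thymus, 4 were DE and lower and 0 were higher by edgeR, with 1 higher at an unadjusted p under 0.05. Of all genes tested there, 2.99% were lower and 3.17% higher. Of the 4 DE genes, *Tnf* (log2 fold change −1.29) and *Myc* (−0.96) had the largest changes. Of 32 tested in the spleen, 5 were higher and 4 lower, where 5.90% and 3.55% of all genes were. *Ier3* (1.18) and *Fosl2* (0.88) led the higher genes and *Myc* (−1.02) and *Tnf* (−0.41) the lower ones. *Ier3* had only 10 to 16 counts in splenic WT and 25 to 47 counts in splenic CD25 KO mice. *Myc* thus fell by 0.96 in the thymus and 1.02 in the spleen. The median log2 fold change of the list was −0.04 (thymus) and 0.11 (spleen), against −0.0022 and −0.0065 for all genes.

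The AP-1 genes *Fos* and *Jun* were not DE in either tissue. In the spleen *Fos* had 96.5, 102, 138 and 138 CPM in WT and 74.0, 102, 105 and 140.0 CPM in CD25 KO mice (log2 fold change −0.17, adjusted p = 0.497), and *Jun* differed by −0.21 (adjusted p = 0.0836). In the thymus *Fos* was high in WT mice 1 to 3 and low in mice 4 and 5, and CD25 KO mice had 30.6 to 45.3 CPM, between these sets (log2 fold change −1.16, adjusted p = 0.117), while *Jun* differed by −1.41 (adjusted p = 0.0192). Across the same 5 WT mice, *Egr1* ranged from 132 to 181 CPM and *Nr4a1* from 261 to 313 CPM, and the 2 mice with low *Fos* had 132 and 169 CPM of *Egr1* and 265 and 313 CPM of *Nr4a1*. Of 12 heat shock genes, which respond to cell stress, 8 were DE and lower in thymic CD25 KO mice, where 2.99% of all genes were lower. In the spleen 0 of 11 were DE by edgeR, with 1 at an unadjusted p under 0.05. *Hspa1a* had 40, 191, 141, 13 and 31 counts in thymic WT and 0, 1, 4, 3 and 3 counts in thymic CD25 KO mice, and *Hspa1b* had 117, 623, 370, 50 and 94 against 7, 15, 11, 13 and 9 counts. The part of cell stress in the thymic levels of the 8 genes was not tested.

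Of 18 upstream regulators tested in the thymus, where 6.16% of all genes were DE, 2 were higher, *Mef2a* (0.56), a calcium-responsive factor of *Nr4a1*, and *Hdac4* (0.35), a deacetylase that represses MEF2 targets, and 1 was lower, *Elk1* (−0.52), an ERK-responsive partner of serum response factor. Of 17 tested in the spleen, where 9.45% of all genes were, 1 was DE, *Crem* (0.57), a cAMP-responsive factor, at 13.6 to 16.2 CPM in WT and 16.8 to 25.2 CPM in CD25 KO mice.

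Known targets of NR4A and EGR proteins, or genes found with them in anergic or exhausted T cells, included DE genes in both tissues. The interaction term passed for 17 of these 34, with the higher value in the spleen for 14 and the lower for 3. Over all genes tested, 4.50% passed with the higher value in the spleen and 2.49% with the lower. Of 34 tested in the spleen, 14 were higher and 5 lower, where 5.90% and 3.55% of all genes were, with a median log2 fold change of 0.25. The inhibitory receptors *Havcr2* (log2 fold change 1.77) and *Lag3* (1.68) rose most of the DE genes, while *Bach2* (−0.65) and *Foxp3* (−0.55) fell most. In the thymus 3 of 31 were higher and 6 lower, where 3.17% and 2.99% of all genes were. There 22 did not pass, and the median was −0.06. Among the DE genes there, *Tigit* (−2.58) and *Socs1* (−0.92), a target of IL-2 signaling, had the largest decreases, and the proapoptotic *Bcl2l11* (0.44) and *Tox* (0.38) the largest increases. *Foxp3* fell by 0.74 in the thymus and 0.55 in the spleen. *Nr4a1* and *Nr4a3* did not pass the test in either tissue, and *Nr4a2* was higher in the spleen (0.62). A link between *Foxp3* and the NR4A genes was not tested. *Bcl2l11*, a target of Nr4a1 in thymocyte deletion, rose by 0.44 in the thymus and fell by 0.34 in the spleen.

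Of 14 surface genes tied to TCR signal strength, *Cd5* itself left out, 6 were lower and 0 higher by edgeR in thymic CD25 KO mice. In the thymus 1 was higher at an unadjusted p under 0.05, and in the spleen 4 were higher and 1 lower. Over all genes tested, 2.99% were lower and 3.17% higher in the thymus, and 3.55% were lower and 5.90% higher in the spleen. *Ly6a* fell by 1.02 in the thymus and rose by 0.93 in the spleen, and *Izumo1r*, the folate receptor of Tregs and anergic cells, fell by 0.57 in the thymus. *Icos* rose by 0.75 in the spleen, where *Ly6c1*, a mark of weak signaling, fell by 1.30. Beside this stood genes of Treg subsets: of 14 effector Treg genes, 8 were lower in the thymus and 12 higher and 1 lower in the spleen, and of 9 central Treg genes 1 was lower in the thymus and 4 were lower and 1 higher in the spleen. B cell markers moved the same way, with 2 of 4 tested lower in the thymus (*Ighm*, *Ighd*) and 3 of 6 higher in the spleen (*Ighm*, *Cd22*, *Pax5*). The part of either in the levels of the 8 genes was not tested.

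**Figure D5:**
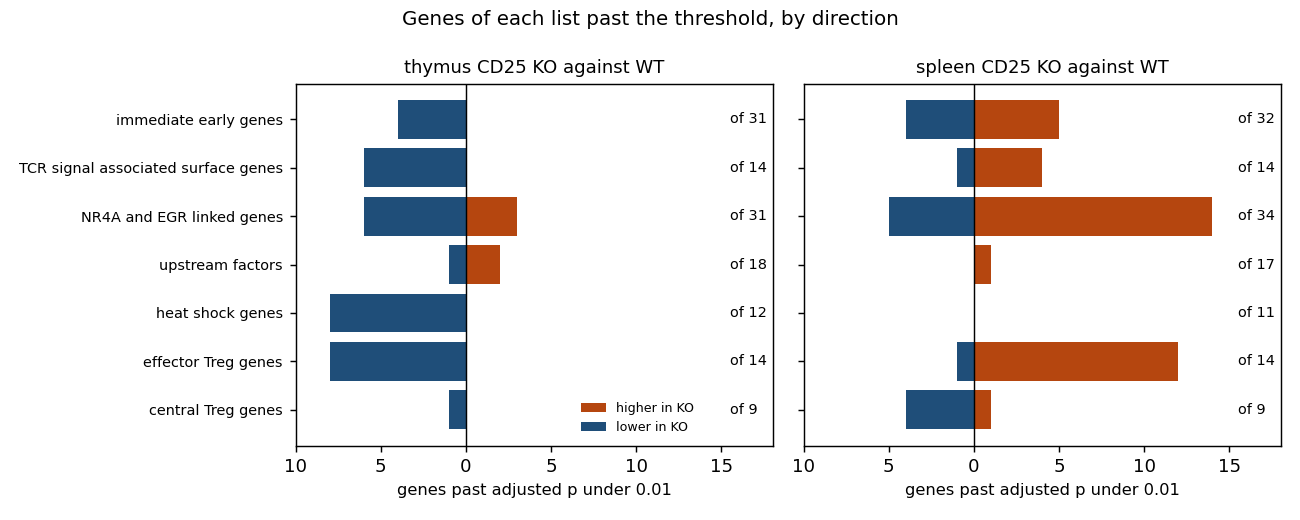
Number of genes of each list that passed an adjusted p of 0.01 (horizontal axes), to the left when lower and to the right when higher in CD25 KO than in WT mice, in thymus and spleen; the number tested stands at the right edge. In the thymus 8 of 14 effector Treg genes are lower, and in the spleen 12 are higher, as are 14 of 34 genes linked to NR4A and EGR proteins. Lists share genes, such as *Tigit* and *Batf* in these last lists, so the bars are not independent.

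Further lists of other cell types showed fewer changes. Of myeloid and dendritic cell markers none of 6 tested was DE in the thymus and 1 of 5 was higher in the spleen, *Lyz2*, with a summed level of 14.1 to 21 CPM there in WT and 18.8 to 25.3 CPM in CD25 KO mice. Of NK cell markers the 1 tested in the thymus was not DE and 1 of 2 was higher in the spleen, *Klrb1c*, with a summed level of at most 16.2 CPM. Markers of CD8 and double-positive thymocytes, of erythroid cells and platelets and of thymic stroma held no DE gene in either tissue by edgeR, where 1 of 7, 1 of 5 and 0 of 1 tested in the thymus and 3 of 4, 0 of 2 and 1 of 2 in the spleen had an unadjusted p under 0.05. Of 9 Treg markers 4 were lower in the thymus, where 2.99% of all genes were. In the spleen 4 were higher and 3 lower, where 5.90% and 3.55% of all genes were.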

How the data were processed

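RNA-seq was done by the authors on RNA of sorted Tregs with a KAPA RNA Hyperprep library and 75 bp paired-end reads. Per the study's methods and the submitters' processing notes, reads were mapped to GRCm38 with STAR 2.5.0b and counted per GENCODE M13 gene with featureCounts 1.5.0. The authors deposited raw counts, 1 column for each of the 18 mice, which were used as they stand, and the strand setting of counting was not given in the sources used here.

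Groups came from the sample labels. Symbols and exon lengths came from GENCODE M21, which named 50376 of 50600 identifiers. Levels are CPM (read counts relative to library size) with TMM scaling over 18 libraries. Tests were edgeR 4.0.16 quasi-likelihood fits in R 4.3.3 after filterByExpr and TMM, over all genes of the table that passed, with Benjamini-Hochberg adjustment and a threshold of 0.01. Each tissue was fitted alone, and the difference and the comparisons between tissues came from 1 fit of all mice. DESeq2 1.42.0, other normalizations, filters, thresholds, a correction for GC content, a replicate block and fits without single mice were tried as alternatives. Correlations used log2 CPM with a prior count of 2, over genes whose average log2 CPM was 1 or more. All 8 genes are named throughout, of each list the 2 DE genes that rose most and the 2 that fell most in each tissue, and of partners every gene with a value. *Bcl2l11* and *Foxp3* are also given in the tissue where that rule did not name them, and genes of marker lists and those that split the libraries were chosen after their values were seen.

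The 8 genes and the lists were chosen with earlier results of these data known. Nothing but separate mice marks the replicates, and no pair within a group agreed within sampling noise (lowest chi-square per degree of freedom 4.01; r of log2 CPM 0.972 to 0.994). Tested on simulated data, the fits recovered 49.0% of genes changed by 1.5-fold and 85.0% of those changed by 2-fold in the thymus (16783 genes), 73.0% and 92.0% in the spleen (17282 genes), and 30.0% and 70.0% for the difference (18214 genes). In each simulation 100 genes were changed at each fold and mice were drawn independently. The split among thymic WT mice was not built in, so the rates hold for such simulated data only.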

Additional observations from a re-analysis of the deposited data

Results flagged for a closer look

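The effect of CD25 deficiency differed between tissues for *Nr4a2*, by 0.89 on the log2 scale (spleen minus thymus, edgeR adjusted p = 0.00888), for *Egr1*, by 0.64 (adjusted p = 0.000776), and for *Egr2*, by 0.72 (adjusted p = 0.00134). All 4 splenic CD25 KO mice were above all 4 splenic WT mice for each of the 3 genes, and thymic groups overlapped. Tissue, mouse model, age and sequencing run cannot be told apart in this difference.

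*Cd5* of splenic WT mouse 1, at 401 CPM, lay far below the other 3 splenic WT mice, at 463 to 473 CPM, a gap of 0.860 of the whole range. It was the only 1 of 32 sets of a gene and a group to stand out in this way, where chance gives about 1 in 20. Without that mouse the log2 fold change of *Cd5* in the spleen was −0.09, the lowest of the values with 1 mouse left out, and it did not pass the test (adjusted p = 0.207).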

How the results depend on the processing

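Splenic *Egr1* and *Egr2* kept their calls in every alternative tried except a test against a fold of 1.5. Under it no gene of the 8 passed in the spleen, thymus or difference (0 in each). Between tissues, 4 passed in WT mice (*Nr4a1*, *Nr4a2*, *Nr4a3* and *Egr3*) and 2 in CD25 KO mice (*Nr4a1* and *Nr4a3*). That test asks for more than a change. The 1 call of the thymus, *Nab2*, fell to 0 under RLE normalization (adjusted p = 0.0106), upper-quartile normalization (0.0118), the correction for GC content (0.0634), and without WT mice 4 and 5 (0.0226) or 1, 2 and 3 (0.173); the cause was not tested. It held with DESeq2 (0.000744). Leaving out 1 mouse gave 0 to 1 calls in the thymus, 2 to 3 in the spleen and 2 to 3 in the difference, the third being *Nr4a2* in each of the last. The same left 5 to 6 calls between tissues in WT and 7 to 8 in CD25 KO mice, the eighth being *Nr4a2*. Without WT mice 1, 2 and 3 the difference had 0 calls. These sets of mice were chosen after seeing the data.

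The replicate numbers of the thymic samples do not pair them: same-numbered mice had r of −0.24 to 0.14 for their deviations and 1 of 5 pairs was over 0.1, and 1 of 5 correlated best with its own number. With the replicate block the count in the thymus was 0 (*Nab2* adjusted p = 0.0321) and with the block and the GC correction 0 (0.0762), and genes called over the table went from 1047 to 209 and 214.

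Values that changed sign were all near 0, with adjusted p of 0.164 to 0.997. Thymic *Egr1* was 0.00157 with upper-quartile normalization, 0.103 with the GC correction, 0.106 with the block and GC correction, 0.0744 without WT mice 1, 2 and 3, and −0.0996 to 0.00602 with 1 mouse left out. Thymic *Egr2* was 0.0426 with the GC correction, 0.0397 with the block added, and 0.0236 without CD25 KO mice 2 and 4. Splenic *Nr4a1* was 0.0325 with the GC correction and −0.0880 to 0.0356 with 1 mouse left out. The difference of *Nr4a3* was 0.0289 without CD25 KO mice 2 and 4, 0.0216 without WT mice 1, 2 and 3, and −0.0776 to 0.0417 with 1 mouse left out, and that of *Egr3* was 0.0111 without WT mice 1, 2 and 3. Over all values of single genes, 876 kept direction and side of the threshold, 68 lost and 12 gained the call, and 20 changed sign. With total counts in place of TMM, 2 of 32 levels moved by over 1 SD, *Nab2* in thymic CD25 KO mice (55.5 CPM) and *Cd5* in splenic CD25 KO mice (434 CPM).

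Genes called over the table ranged in the thymus from 29 (without WT mice 1, 2 and 3) and 164 (without 4 and 5) through 1047 to 2008 (without CD25 KO mice 2 and 4), 2763 with DESeq2, 2881 in a fit of all mice and 3951 at 0.05, with 46 against a fold of 1.5. In the spleen 1651 became 795 in a fit of all mice, 3001 at 0.05 and 169 against a fold of 1.5, and in the difference 1305 became 453 without WT mice 1, 2 and 3, 2307 without CD25 KO mice 2 and 4, 2188 with DESeq2, 3149 at 0.05 and 182 against a fold of 1.5. The share of calls that were higher was 51.5% in the thymus and 64.4% in the difference, and 64.7% and 47.9% with upper-quartile normalization, which also shifted the median of all genes between tissues of CD25 KO mice to −0.10. Low counts limit *Egr4*, *Wt1*, *Gm16229* and, outside thymic WT mice, *Hspa1a* and *Hspa1b*, all at 25 counts or fewer, and not the 8 genes. *Ier3*, at 47 counts or fewer in splenic mice, is limited in the same way.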
